A study of Mus musculus with 6 samples.

Results

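The 8 genes described here encode enzymes of the pentose phosphate pathway and the synthetase that takes up its product: G6pdx, Pgls and Pgd of the oxidative arm, Rpia, Rpe, Tkt and Taldo1 of the non-oxidative arm, and Prps1. They were picked by gene symbol from the 27502 genes of the deposited tables. Their choice was made with the difference between the sample groups in view, Taldo1 being the most strongly raised, so their values in that comparison are given as a description and carry no test. RNA came from cultured vascular smooth muscle cells of the mouse aorta, a cell type that contracts to narrow the vessel. The 3 siEzh2 samples received short interfering RNA (siRNA) against Ezh2, which encodes the main H3K27 methyltransferase of Polycomb repressive complex 2, and the 3 Control samples are labelled as the controls of this knockdown. All were taken at 48 hours. The sources used here do not give what the Control cells received, the siRNA sequences, or the strain, age and number of mice. They also do not say whether each sample was a culture or an animal of its own, so errors and p-values cover only a spread between samples that may be technical.

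The oxidative arm of the pentose phosphate pathway oxidises glucose 6-phosphate to ribulose 5-phosphate and yields NADPH, the reducing agent that regenerates glutathione and feeds lipid synthesis. The non-oxidative arm interconverts pentose phosphates with the fructose and glyceraldehyde phosphates of glycolysis, in either direction. In vascular smooth muscle, NADPH serves both antioxidant enzymes and the NADPH oxidases that make superoxide. Prps1 turns ribose 5-phosphate into PRPP, the sugar donor of nucleotide synthesis.

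Of the 8 transcripts, that of Taldo1 alone held one of the 5 motifs of 7 bases that earlier work on these data had picked out in the 3′ untranslated regions (UTRs) of higher or lower genes. It held a pair of them, CGGAGAA and, shifted by a base, TCGGAGA, which together read TCGGAGAA, a run that starts at base 116 of an annotated 3′ UTR of 192 bases. The site stands on the plus strand at chr7:141402881-141402910 (mm10), and capitals mark the match. The sites from G6pdx and Pgd are shown because both enzymes yield NADPH and their promoters matched TGACNNNGC, the core of the antioxidant response element bound by NRF2, in windows of 250 bases before to 50 after the RefSeq start site (build GRCm38.p6, the same assembly as mm10), searched on both strands. The match of G6pdx is at chrX:74428919-74428947 and that of Pgd, in the second of its windows, at chr4:149166061-149166089, both read on the minus strand, that of the genes. In G6pdx the match itself is on the opposite strand. The other window of Pgd, chr4:149166656-149166955, which spans the annotated 5′ end of the gene, held no match.
Taldo1 3′ UTR: ttttttagtgaTCGGAGAAgggatggatca
G6pdx promoter: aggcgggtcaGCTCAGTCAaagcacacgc
Pgd promoter: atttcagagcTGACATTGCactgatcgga

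Among the 10549 tested genes with an annotated 3′ UTR, 72 (0.682%) held TCGGAGAA there. Of these 72 genes, 42 were higher, 6 lower and 24 not called in siEzh2 samples, so that 58.3% were higher against 24.9% of genes without it. Taldo1 ranked 2 among the 72 by log2 fold change, after Ctxn1. The 8-base form was chosen after its genes' values had been seen, so this share is a description. Because the 5 motifs of 7 bases were picked out in these same data, their shares are descriptions too and nothing is read from them. The 7-base forms had smaller differences. CGGAGAA was held by 301 genes, of which 44.2% were higher, against 24.6% of genes without it, and for TCGGAGA, held by 246 genes, these shares were 45.1% and 24.7%. The other 7 enzymes had none of the 5 motifs of 7 bases in an annotated 3′ UTR, searched on the sense strand. Of the 3 motifs absent from Taldo1, TGTCACG was held by 348 genes, of which 38.2% were higher, against 24.7% of genes without it. The other two went the other way, with 33.4% of the genes that held ACATATA lower, against 23.1% of genes without it, and for genes with CATATAA 32.6% lower, against 23.6%. Since the sequences of the siRNAs used in siEzh2 and Control samples are not given, whether these letters match an siRNA of either group was not tested. The Taldo1 ratio below is therefore a difference between the labelled groups and does not say in which of them the level was altered. TGACNNNGC stood in the window of G6pdx and in the second window of Pgd, 2 of the 8 genes, and in a window of 13.98% of all genes in the RefSeq table. CACGTG, the E-box bound by MYC, was in none of the 8 and in 8.09% of all genes, CCAAT in 4 of the 8 (Taldo1, Pgd, Rpe and Prps1) and in 41.0%, and GGGCGG, the GC box, in all 8 and in 38.2%. Unlike the 3′ UTR shares, these cover 26994 genes whether tested or not. Shares over tested genes alone were not taken, so no trait of the 8 is read from them.

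The values are FPKM, read fragments scaled by gene length and by library size. The length fits that of all annotated exons of a gene merged, 2171 bases for Taldo1 and 7355 for Tkt. Comparisons of level between genes depend on this length. Reads recovered from the FPKM values summed to between 16080005 and 17553744 per siEzh2 sample and between 18248440 and 18753124 per Control sample. Ezh2 itself had 1.20, 1.09 and 1.05 FPKM in siEzh2 samples 1 to 3, against 3.41, 3.59 and 3.88 FPKM in Control samples 1 to 3 (log2 fold change −1.13, SE 0.0513, limma adjusted p = 5.15e-05). The cells were checked against smooth muscle markers. Acta2 had 537 ± 17.8 FPKM in siEzh2 and 699 ± 14.8 in Control samples (SD, n = 3 each), while Tagln, Des and Mylk stayed under the filter of the test, a mean of 1 FPKM in at least 1 group. Genes on the opposite strand cover 67.9% of the exon bases of Tagln, so its low value, on 23 reads over the siEzh2 and 28 over the Control samples, is uncertain. Myh11 (1.12 and 1.83 FPKM in siEzh2 and Control samples) and Cnn1 (1.04 and 1.14) were near that filter. The 10 smooth muscle markers, with Acta2 the largest part, summed to between 609 and 648 FPKM in siEzh2 and between 875 and 900.4 FPKM in Control samples, with 5 of 7 tested members lower and 0 higher. Over all 11869 tested genes, against which this and the next counts stand, 22.7% were lower and 24.1% higher. Adipocyte markers summed to between 37.2 and 38.7 FPKM in siEzh2 and between 52.9 and 54.4 in Control samples (4 of 5 tested lower), macrophage and leukocyte markers to between 14.1 and 15.2 and between 17.2 and 20.5 (2 higher and 2 lower of 4, with Csf1r, lower, past the filter through Control samples alone), endothelial markers to between 3.48 and 3.84 and between 2.20 and 2.50 (1 tested, higher), and fibroblast markers to between 64.7 and 68.0 and between 72.8 and 76.7 (1 higher and 3 lower of 5). No marker was at 0 in all 6 samples. The 13 mitochondrially encoded genes, which can reflect RNA quality, summed to between 15861 and 16976 FPKM in siEzh2 and between 19081 and 19794 in Control samples (8 of 13 lower). Under quantile normalization, mt-Nd1, mt-Co1 and mt-Cytb lost their calls. There mt-Co1 stood at a log2 fold change of −0.31 (limma adjusted p = 0.0921), and no difference between the groups was left for mt-Nd1 and mt-Cytb. This method gives genes of the same rank in every sample the same value, so nothing is read from that absence. When a sample was left out, mt-Nd1 ranged from −0.301 to −0.254 and mt-Cytb from −0.318 to −0.237. In bulk RNA, fewer cells of a type and less RNA per cell cannot be told apart, and the part of these shifts in the results below was not tested.

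Taldo1 (ENSMUSG00000025503, chr7:141392199-141402968 on the plus strand), transaldolase, which moves a dihydroxyacetone unit between sugar phosphates, differed most. It had 67.4, 69.7 and 67.3 FPKM in siEzh2 samples 1 to 3, against 16.1, 15.9 and 17.1 FPKM in Control samples 1 to 3. Every siEzh2 sample lay far above every Control sample, and the samples of a group differed little. The mean was 68.1 ± 1.35 FPKM in siEzh2 and 16.4 ± 0.641 FPKM in Control samples (SD, n = 3 each), 4.16 times higher, from 7555 and 1975 reads. The log2 fold change on log2(FPKM + 1) was 1.99 (SE 0.0406), which ranked 3 among the 11869 tested genes, after Ctxn1 and Cyp1a1. A predicted gene, Gm17823, shares 146 of the 2190 distinct 50-base stretches of the annotated Taldo1 transcripts and had 4 reads over the siEzh2 and 0 over the Control samples.

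The other enzymes of the non-oxidative arm differed far less. Tkt (ENSMUSG00000021957, chr14:30548359-30574720), transketolase, which moves a smaller carbon unit between the same sugars, had 28.9, 29.2 and 30.8 FPKM in siEzh2 samples and 26.0, 27.3 and 26.4 FPKM in Control samples. Its groups did not overlap, but they lay close together, at 29.6 ± 1.02 and 26.6 ± 0.649 FPKM (SD, n = 3 each), a ratio of 1.11. Rpia (ENSMUSG00000053604, chr6:70765720-70792232), ribose 5-phosphate isomerase, had 3.73, 3.55 and 3.29 FPKM in siEzh2 samples and 2.41, 2.36 and 2.43 FPKM in Control samples. This was the least abundant of the 8, on 963 reads over the siEzh2 and 715 over the Control samples, and its groups were apart at 3.52 ± 0.223 and 2.40 ± 0.0393 FPKM (SD, n = 3 each). Rpe (ENSMUSG00000026005, chr1:66700831-66719805), ribulose 5-phosphate epimerase, had 14.5, 14.8 and 12.8 FPKM in siEzh2 samples and 15.2, 14.0 and 14.0 FPKM in Control samples. Its groups overlapped, and its log2 fold change of −0.04 (SE 0.0632) changed sign, to 0.02, without siEzh2 sample 3. Exons of Kansl1l on the opposite strand cover 17.9% of the exon bases of Rpe, and the sources used here do not say whether reads were counted by strand.

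In the oxidative arm the enzymes at either end were higher and the one between them lower. G6pdx (ENSMUSG00000031400, chrX:74409483-74429194), glucose 6-phosphate dehydrogenase, which commits glucose 6-phosphate to the pathway, had 59.6, 60.4 and 63.5 FPKM in siEzh2 samples and 47.3, 46.7 and 50.7 FPKM in Control samples. All siEzh2 samples were above all Control samples, with means of 61.2 ± 2.08 and 48.2 ± 2.16 FPKM (SD, n = 3 each), 1.27 times higher. Ikbkg on the opposite strand covers 13.6% of its exon bases and was lower in siEzh2 samples (7.47 ± 0.294 and 9.75 ± 0.441 FPKM in siEzh2 and Control samples, SD, n = 3 each). Pgls (ENSMUSG00000031807, chr8:71592176-71601092), 6-phosphogluconolactonase, which opens the lactone made by G6pdx, had 12.1, 10.4 and 12.0 FPKM in siEzh2 samples and 13.7, 15.0 and 13.7 FPKM in Control samples. It was the only enzyme of the 8 with every siEzh2 sample below every Control sample, at 11.5 ± 0.960 and 14.1 ± 0.762 FPKM (SD, n = 3 each). Fam129c, on the same strand, covers 20.6% of the exon bases of Pgls and had 0.544 ± 0.0205 and 0.445 ± 0.0250 FPKM in siEzh2 and Control samples (SD, n = 3 each). Pgd (ENSMUSG00000028961, chr4:149149991-149166771), 6-phosphogluconate dehydrogenase, which yields NADPH and ribulose 5-phosphate, had 46.4, 46.8 and 46.2 FPKM in siEzh2 samples and 36.0, 34.5 and 34.0 FPKM in Control samples. Its siEzh2 samples, with a coefficient of variation of 0.619%, lay above all Control samples, at 46.5 ± 0.288 and 34.8 ± 1.04 FPKM (SD, n = 3 each).

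Prps1 (ENSMUSG00000031432, chrX:140456613-140476140), which makes PRPP, had 14.4, 13.7 and 12.3 FPKM in siEzh2 samples and 9.31, 10.1 and 9.46 FPKM in Control samples. The groups did not overlap, with means of 13.5 ± 1.07 and 9.61 ± 0.391 FPKM (SD, n = 3 each), 1.40 times higher. Of the 1944 distinct 50-base stretches of its transcripts, 193 also occur in Prps1l3, so reads of these 2 genes could have been split between them.

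**Figure D1:**
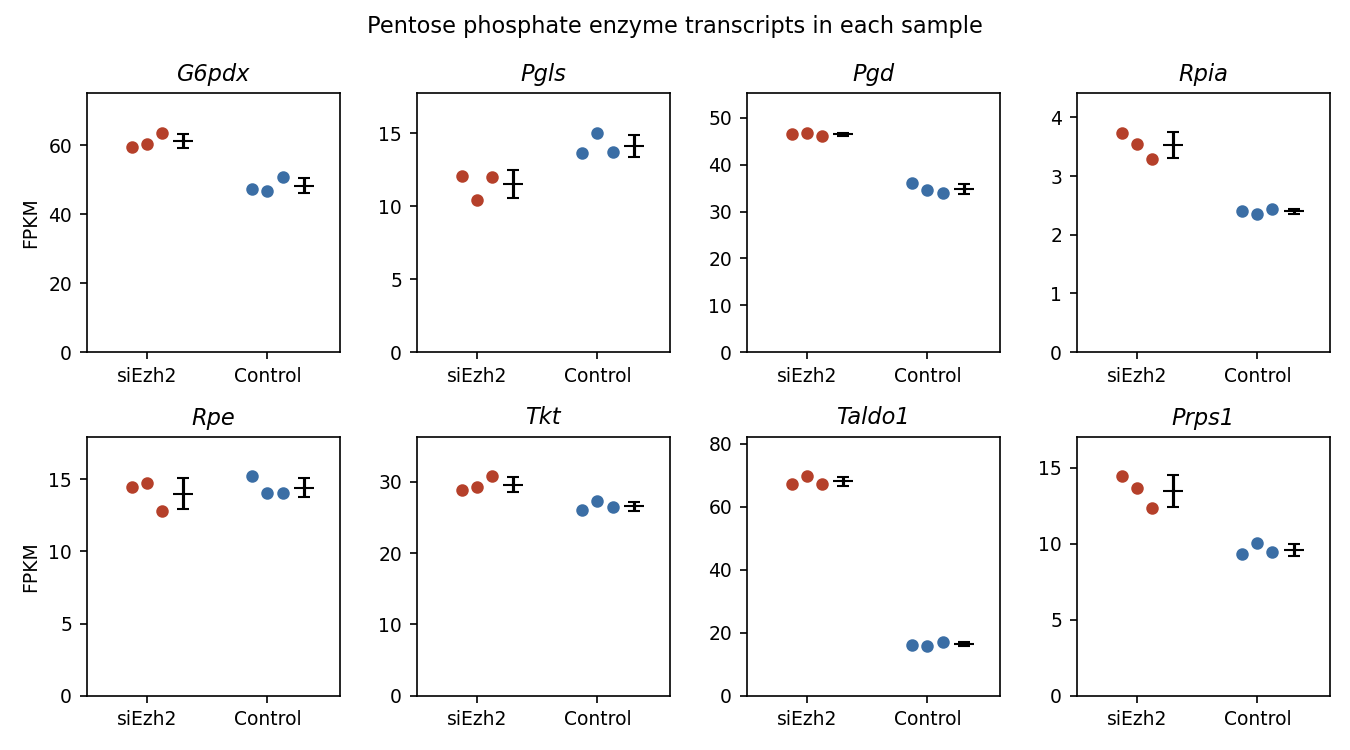
FPKM (vertical axes, each from 0) of the 8 enzymes in the 3 siEzh2 (red) and 3 Control (blue) samples; each point is a sample and the black bar with whiskers is the mean ± SD. Taldo1 stood at 67.3 to 69.7 FPKM in siEzh2 samples, against 15.9 to 17.1 FPKM in Control samples, while the groups of Rpe overlapped and those of Pgls were apart in the other direction.

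All 8 enzymes passed the filter in both groups. In the fit over all genes, 6 were called higher (Taldo1, Prps1, Rpia, Pgd, G6pdx and Tkt), where 24.1% of the 11869 tested genes were, and 1 was called lower (Pgls), where 22.7% were, or 7 in either direction, where 46.9% were. The same 6 had every siEzh2 sample above every Control sample, against 30.0% of all tested genes, and the same 1 had every siEzh2 sample below, against 28.1%. As the genes were chosen on this comparison, nothing is read from these counts. The median log2 fold change of the 8 was 0.37, against 0.01 over all tested genes. Apart from Taldo1, each of the enzymes lay between the 5th and the 95th percentile of all tested genes (−0.44 and 0.50), with Prps1 at 0.45, Rpia at 0.41, Pgd at 0.41, G6pdx at 0.34, Tkt at 0.15 and Pgls at −0.28. Tkt dropped out of the called genes without Control sample 1 (log2 fold change 0.14) or 3 (0.15) and without siEzh2 sample 2 (0.16) or 3 (0.12), and Pgls without Control sample 2 (−0.24).

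**Figure D2:**
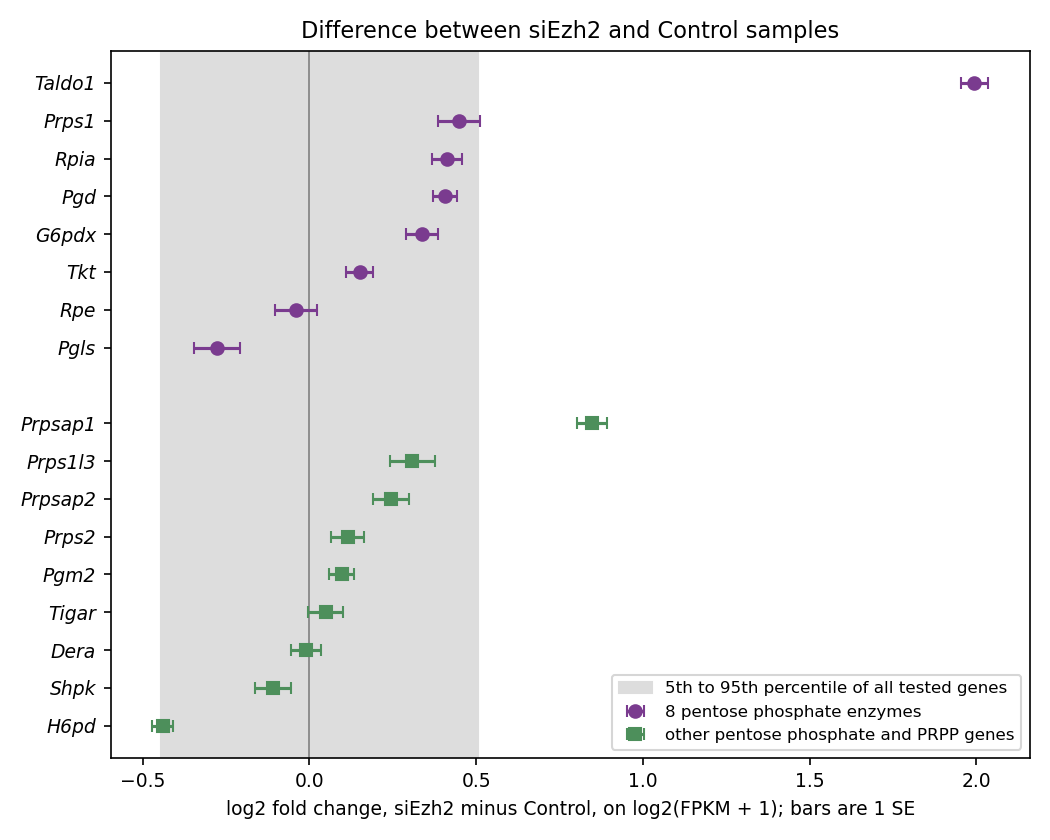
Log2 fold change, siEzh2 minus Control, on log2(FPKM + 1) (horizontal axis, with bars of 1 SE) of the 8 enzymes (purple circles) and of 9 other tested pentose phosphate and PRPP genes (green squares); the grey band spans the 5th to the 95th percentile of all tested genes, −0.44 to 0.50. Taldo1 at 1.99 and Prpsap1 at 0.85 lie above the band.

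The order of the FPKM levels differed between the groups mainly through Taldo1. This order and the size of ratios between genes depend on exon length. By reads over the siEzh2 samples, Pgd (15294), Tkt (11132) and G6pdx (9626) were above Taldo1 (7555). In siEzh2 samples the means ran from Taldo1 (68.1 FPKM) through G6pdx (61.2), Pgd (46.5), Tkt (29.6), Rpe (14.0), Prps1 (13.5) and Pgls (11.5) to Rpia (3.52). In Control samples they ran from G6pdx (48.2 FPKM) through Pgd (34.8), Tkt (26.6), Taldo1 (16.4), Rpe (14.4), Pgls (14.1) and Prps1 (9.61) to Rpia (2.40). Neighbours in this order had ranges that did not overlap, apart from Rpe and Prps1 in siEzh2 samples and Rpe and Pgls in Control samples. The ratio of Taldo1 to Tkt, the pair that carries out the sugar exchanges of the non-oxidative arm, was 2.30 ± 0.102 in siEzh2 and 0.616 ± 0.0318 in Control samples (SD, n = 3 each). For G6pdx and Pgd, the NADPH-yielding pair, the ratio was 1.32 ± 0.0510 in siEzh2 and 1.39 ± 0.0938 in Control samples (SD, n = 3 each), so this pair differed by less than the SD of the Control samples.

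Summed over the 8 enzymes, the level was 248 ± 0.831 FPKM in siEzh2 and 167 ± 1.15 FPKM in Control samples (SD, n = 3 each), 1.49 times higher. Taldo1 made up 27.5% ± 0.491 of this sum in siEzh2 and 9.82% ± 0.316 in Control samples (SD, n = 3 each). The oxidative arm summed to 119 ± 2.25 FPKM in siEzh2 and 97.2 ± 1.11 FPKM in Control samples, and the non-oxidative arm to 115 ± 1.69 and 59.7 ± 0.229 FPKM (SD, n = 3 each). Without Taldo1 the non-oxidative sum was 47.2 ± 0.348 FPKM in siEzh2 and 43.4 ± 0.417 FPKM in Control samples (SD, n = 3 each), a ratio of 1.09 in place of 1.93. These are transcript levels, and enzyme amounts or fluxes were not measured. The sums and shares also depend on the exon lengths used in FPKM.

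**Figure D3:**
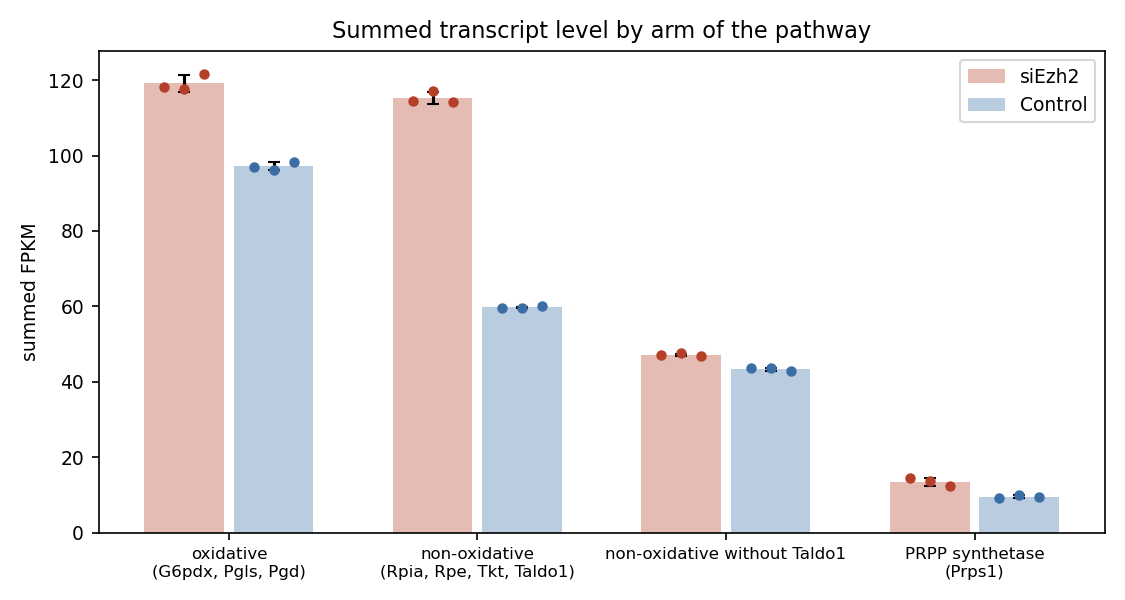
Summed FPKM (vertical axis, from 0) of the oxidative arm, the non-oxidative arm with and without Taldo1, and Prps1, in siEzh2 (red) and Control (blue) samples; bars are means, whiskers SD, points samples. The non-oxidative sum was 115 FPKM in siEzh2 and 59.7 FPKM in Control samples with Taldo1, and 47.2 and 43.4 FPKM without it.

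By the distance of their deviations from the Control mean on log2(FPKM + 1) over the 6 samples, the 5 genes most like Taldo1, out of 6894 tested genes averaging 5 FPKM or more, were Prl2c3 of the prolactin family (root mean square difference 0.0922), Ivl, which encodes involucrin (0.113), the chemokine Ccl7 (0.147), the virus-tethering protein Bst2 (0.152) and Prl8a9 (0.206), also of the prolactin family. Prl2c3 had 124 ± 4.55 FPKM in siEzh2 and 31.2 ± 3.79 FPKM in Control samples (SD, n = 3 each), which is uncertain because 814 of the 1357 distinct 50-base stretches of its transcripts also occur in other genes of the family. Ivl had 14.0 ± 0.574 and 3.06 ± 0.268 FPKM in siEzh2 and Control samples, and Prl8a9 20.8 ± 0.776 and 4.68 ± 1.31 (SD, n = 3 each). As the mean of 5 FPKM was taken over all 6 samples, both passed it through siEzh2 samples alone, and nothing is read from their place. The distance from Taldo1 is set mainly by the size of the log2 fold change, which was 1.80 to 1.96 for these 5 genes. Rpia, under 5 FPKM, was not compared. The other 6 pentose phosphate enzymes, at 0.45 or less, could not be near Taldo1 by this measure, so nothing is read from their absence.

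Other genes of the pathway and of PRPP synthesis were tested in the same fit. The lists were drawn up with earlier results of these data known. Of 14 listed genes, G6pd2 was not analysed here and Tktl1, Tktl2, Rbks and Prps1l1 stayed under the filter. Of the 9 tested, 3 rose (33.3%, against 24.1% of all tested genes), 1 fell (11.1%, against 22.7%) and 5 did not pass. Prpsap1, a regulatory partner of PRPP synthetase, rose to 18.0, 19.4 and 19.8 FPKM in siEzh2 samples, against 10.43, 10.05 and 10.02 FPKM in Control samples. Its groups were well apart (log2 fold change 0.85, SE 0.0455, limma adjusted p = 8.67e-05), and it was the only gene of this list outside the 5th to 95th percentile of all tested genes on the higher side. Prpsap2, the other such partner, rose to 5.82 ± 0.353 FPKM in siEzh2 samples, against 4.76 ± 0.251 in Control samples (SD, n = 3 each, limma adjusted p = 0.0124), with 29.6% of its 50-base stretches shared with predicted genes. Prps1l3, which shares sequence with Prps1, rose to 12.1 ± 0.416 FPKM in siEzh2 samples, against 9.63 ± 0.926 in Control samples (SD, n = 3 each, limma adjusted p = 0.0116), and 10.8% of its exon bases lie in Mipol1. Prps2, the paralogous synthetase, had 16.5 ± 0.730 FPKM in siEzh2 and 15.2 ± 0.668 in Control samples (SD, n = 3 each, limma adjusted p = 0.10) and its groups overlapped. On recovered reads with limma-voom its adjusted p was 0.0384.

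H6pd, the enzyme that carries out the steps of G6pdx and Pgls inside the endoplasmic reticulum, was the gene that fell. It had 257, 256 and 253 FPKM in siEzh2 samples, against 347, 348 and 345 FPKM in Control samples (log2 fold change −0.44, SE 0.0304, limma adjusted p = 0.000169). Its samples differed little within a group, and its FPKM was above that of G6pdx in every sample. No other measurement of H6pd was at hand to check so high a level, and none of its exon bases overlap another gene in the annotation. H6pd was lower in the siEzh2 samples, in which G6pdx and Pgd were higher. Among the genes that did not pass, Shpk, which makes the transketolase substrate sedoheptulose 7-phosphate, had 1.74 ± 0.0877 FPKM in siEzh2 and 1.96 ± 0.177 in Control samples (SD, n = 3 each). Its limma adjusted p was 0.149, and between 0.0432, without Control sample 1, and 0.373 over the alternatives. Tigar, a phosphatase that diverts glucose into the pathway, had 3.07 ± 0.259 and 2.93 ± 0.0621 FPKM in siEzh2 and Control samples (SD, n = 3 each, limma adjusted p = 0.475). Dera, the deoxyribose phosphate aldolase, had 2.50 ± 0.120 and 2.52 ± 0.139 FPKM, and Pgm2, which converts ribose phosphates, 15.7 ± 0.504 and 14.6 ± 0.254 FPKM in siEzh2 and Control samples (SD, n = 3 each, limma adjusted p = 0.879 and 0.0774).

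The list of other NADPH-producing enzymes, which also holds folate enzymes and NAD kinases, went both ways. Of 11 tested, 3 rose (27.3%, against 24.1% of all tested genes) and 2 fell (18.2%, against 22.7%). Those that rose were Idh1, Mthfd1l and Nadk, of which Idh1, the cytosolic isocitrate dehydrogenase, yields NADPH. Idh1 rose to 77.7 ± 1.23 FPKM in siEzh2 samples, against 69.2 ± 2.55 in Control samples (SD, n = 3 each, limma adjusted p = 0.0164), and Nadk, which makes NADP from NAD, by 0.10 on the log2 scale (limma adjusted p = 0.0495). Nadk thus lay close to the threshold of 0.05. When a sample was left out, 2 to 3 genes of the list were higher. The count was 2 with a pseudocount of 0.1, no filter or the replicate block, and 4 with limma's trend and robust options or limma-voom. Idh2, the mitochondrial isocitrate dehydrogenase, fell to 10.8 ± 1.27 FPKM in siEzh2 samples, against 16.0 ± 0.379 in Control samples (SD, n = 3 each, limma adjusted p = 0.00281). Aldh1l1, the cytosolic formyltetrahydrofolate dehydrogenase, fell to 11.5 ± 0.160 FPKM in siEzh2 samples, against 16.4 ± 0.254 in Control samples (SD, n = 3 each, limma adjusted p = 0.000161). Mthfd1l, a mitochondrial folate enzyme listed for its pathway, rose to 7.13 ± 0.114 FPKM in siEzh2 samples, against 5.57 ± 0.219 in Control samples (SD, n = 3 each, limma adjusted p = 0.00133). Of the mitochondrially encoded transcripts 8 of 13 fell in the same samples, and their part in the level of Idh2 was not tested.

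The NRF2 response includes enzymes that use NADPH. NRF2 is the factor that binds antioxidant response elements, and Taldo1, Tkt, G6pdx and Pgd are known among its targets. Of 21 tested genes 17 rose (81.0%, against 24.1% of all tested genes) and 2 fell (9.52%, against 22.7%), with a median log2 fold change of 0.41. Hmox1, heme oxygenase, rose to 381 ± 7.01 FPKM in siEzh2 samples, against 200.3 ± 5.35 in Control samples (SD, n = 3 each, limma adjusted p = 4.02e-05). Gclc, of glutathione synthesis, had a log2 fold change of 0.88 (limma adjusted p = 3.57e-05). Slc7a11, the cystine importer, passed the filter through siEzh2 samples alone, so it is described without a test. The counts of 17 and 21 include it, and nothing is read from its place there. Slc7a11 stood at 2.67 ± 0.184 FPKM in siEzh2 and 0.342 ± 0.0287 in Control samples (SD, n = 3 each). Its log2 fold change was 1.45, or 2.65 with a pseudocount of 0.1 and 2.96 by limma-voom on recovered reads. The next genes were chosen after their values were seen. Nfe2l2, which encodes NRF2, rose to 42.1 ± 0.526 FPKM in siEzh2 samples, against 31.2 ± 0.315 in Control samples (SD, n = 3 each, limma adjusted p = 0.000221). Keap1, which targets NRF2 for degradation, fell to 7.26 ± 0.402 FPKM in siEzh2 samples, against 9.19 ± 0.490 in Control samples (SD, n = 3 each, limma adjusted p = 0.00535). Gsr, which spends NADPH to regenerate glutathione, rose to 10.3 ± 0.419 FPKM in siEzh2 samples, against 8.07 ± 0.492 in Control samples (SD, n = 3 each, limma adjusted p = 0.00442). Besides Keap1, the gene of this list that fell was Cbr1 (log2 fold change −0.22, limma adjusted p = 0.0135). Bach1 and Ftl1 were not called (limma adjusted p = 0.197 and 0.915).

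On the substrate side, 11 of 17 tested genes of glucose uptake and glycolysis rose (64.7%, against 24.1% of all tested genes) and 2 fell (11.8%, against 22.7%), at a median log2 fold change of 0.16. Pfkl, the liver-type phosphofructokinase that commits glucose to glycolysis, rose to 22.6 ± 0.881 FPKM in siEzh2 samples, against 16.3 ± 0.188 in Control samples (SD, n = 3 each, limma adjusted p = 0.000368). Pkm, pyruvate kinase, and Eno1, enolase, rose by 0.35 and 0.33 on the log2 scale (limma adjusted p = 0.00119 and 0.00270). On the product side, 14 of 21 tested genes of purine and pyrimidine synthesis rose (66.7%) and 2 fell (9.52%), at a median of 0.21. Only 1 fell when any sample other than Control sample 1 was left out. Ppat, which commits PRPP to purine synthesis, rose to 5.55 ± 0.263 FPKM in siEzh2 samples, against 3.50 ± 0.331 in Control samples (SD, n = 3 each, limma adjusted p = 0.00109). Atic, which closes the purine ring, rose by 0.39 on the log2 scale (limma adjusted p = 0.000391), and so did Cad, of pyrimidine synthesis (limma adjusted p = 0.00127).

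**Figure D4:**
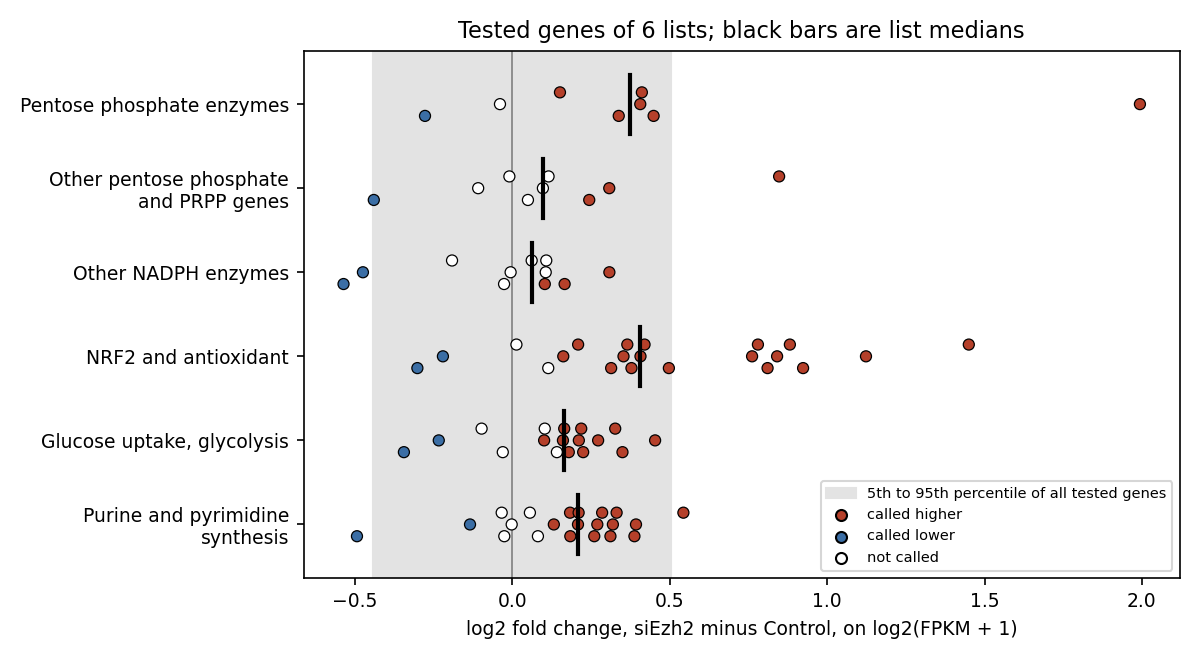
Log2 fold change, siEzh2 minus Control, on log2(FPKM + 1) (horizontal axis) of every tested gene of 6 lists (rows); points are genes, red where called higher, blue where called lower and white where not called, black bars are list medians and the grey band spans the 5th to the 95th percentile of all tested genes. The medians were 0.37 for the 8 pentose phosphate enzymes, 0.10 for the other genes of the pathway, 0.06 for other NADPH enzymes, 0.41 for the NRF2 list, 0.16 for glycolysis and 0.21 for nucleotide synthesis, against 0.01 over all tested genes.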

How the data were processed

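RNA of 6 cultured aortic smooth muscle samples was sequenced from stranded mRNA libraries, per the labels' protocols. Each sample had 1 table of FPKM, deposited by the authors and named so per the file headers. Trimmomatic, HISAT2, HTSeq, Cufflinks and mm10 are named in the submitters' processing notes, with neither versions nor order, and the strand setting of the counting is not given there. Tests used limma 3.58.1 (R 4.3.3) on log2(FPKM + 1), with no covariate, on genes whose mean reached 1 FPKM in either group. On this scale low genes show a smaller fold change than on FPKM. Calls are Benjamini-Hochberg adjusted p-values under 0.05 over all tested genes. GENCODE M21 (mm10) held 99.8% of the gene IDs and gave coordinates, exon lengths and 3′ UTRs. FPKM times exon length moved in whole steps, from which reads were recovered (98.4% to 98.5% of values under 1000 reads were whole within 0.02). Promoter windows came from RefSeq (GRCm38.p6), where all 8 symbols matched.

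The 8 genes, the 5 further lists and the motifs were chosen with earlier results of these data known. Named genes were the 8 enzymes, Ezh2, the other listed pathway genes, the 3 tested genes with the smallest p of each further list (the marker lists are given by sums and counts) and the 5 genes nearest to Taldo1. Ctxn1, Cyp1a1, Idh1, Nadk, Csf1r, Tagln, Myh11, Cnn1, the overlapping or near-identical genes and further genes of the NRF2 list were named after their values were seen. Alternatives were a pseudocount of 0.1, no filter, quantile normalization, a block for the replicate number, limma's trend and robust options, limma-voom on recovered reads and leaving out each of the 6 samples. On recovered reads, sample pairs of a group gave a chi-square of 2.23 to 3.67 per degree of freedom and pairs across groups 33.6 or more. Every library was counted as a sample of its own, though these values cannot tell separate cultures from technical repeats. Python 3.11.15 with pandas 2.3.3, numpy 2.4.6 and matplotlib 3.10.9 did the rest.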

Additional observations from a re-analysis of the deposited data

How the results depend on the processing

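Over the 12 alternatives, the 8 enzymes gave 96 log2 fold changes. Of these, 88 kept their direction and their side of the threshold, 7 (of Tkt and Pgls) lost the call and 1 changed sign, Rpe, which ranged from −0.0765 to 0.0195 when a sample was left out (0.0195 without siEzh2 sample 3). Taldo1 ranged from 1.97 to 2.06. The number of enzymes called higher was 5 or 6, and the number called lower was 0 with the replicate block and 0 to 1 over the fits that left out a sample. Among all genes, leaving out a sample gave 2309 to 2516 higher and 2156 to 2345 lower genes. In the list of other pathway genes, 1 to 2 genes were lower when a sample was left out, 2 of them without Control sample 1. In the nucleotide list 1 gene was lower with no filter and 1 with the replicate block, and 1 to 2 when a sample was left out, 2 without Control sample 1. Dera ranged from −0.0332 to 0.0216 when a sample was left out, changing sign without Control sample 2 and without siEzh2 sample 2, and Tigar from −0.0021 (without siEzh2 sample 2) to 0.0837. For Tkt, Pgls, Rpe, Dera, Tigar and these counts, the cause was not tested. The replicate numbers are not said to pair the samples. Deviations of same-numbered samples from their group means correlated at 0.0243, 0.0695 and 0.0405, and each sample correlated best with its own number, a hint from the data and not from the design. With the replicate block, 2564 genes were higher and 2385 lower, and Tkt and Pgls lost their calls. Depth limits Rpia most among the enzymes, with 236 to 334 reads per sample, and 0 reads would have allowed up to 0.160 to 0.187 CPM, as 3 reads are worth, for counting error only.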
